A study of Mus musculus with 39 samples.

Results

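Fractions 8 and 9 of the sucrose gradients lie between the light and the middle zone of the gradient. They were compared with the fractions on either side of them, 6 and 7 on the light side and 10 and 11 on the dense side. The comparison holds 12 of the 39 libraries of the series, chosen by fraction number alone: fractions 6 to 11 of gradient 1 and fractions 6 to 11 of gradient 2, with 4 libraries of fractions 8 and 9 and 8 flanking libraries. It asked which RNAs took a larger or a smaller share of the RNA in fractions 8 and 9 than in both of the neighboring windows. The median level of mRNAs with coding sequences of up to 300 nucleotides (nt) was highest in fraction 9 of each gradient, and that of mRNAs of ribosomal proteins, also those with coding sequences as short, was highest in fraction 6.

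All 12 libraries came from liver of wild-type FVB female mice, with 1 animal per gradient and no treatment, and they differ only in the fraction and in the gradient. The ages of the mice are not given in the sources used here. The livers were broken up with beads in buffered sucrose without detergent, and nuclei were spun out before the homogenate was loaded on a continuous sucrose gradient. RNA was extracted from each fraction, depleted of ribosomal RNA, and made into stranded libraries from equal masses of RNA. A value therefore gives the share that an RNA took of the RNA in a fraction, not its amount, and a large RNA class that falls from one fraction to the next raises the shares of the others. The values were in TPM, a share of all transcripts in a library corrected for transcript length. TPM keep no counts, so that depth is unknown and precision can be judged from nothing but how far the 2 gradients differ.

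Hepatocyte markers dominated every one of the 12 libraries. The summed TPM of 6 hepatocyte markers (Alb, Apoa1, Ttr, Cps1, Cyp2e1 and Ass1) ran from 10833 to 40355, against 52.3 to 178 for 6 Kupffer cell markers, 34.4 to 86.4 for 6 sinusoidal endothelial markers, 37.0 to 73.4 for 6 stellate cell markers, 3.09 to 5.31 for the 4 cholangiocyte markers in both tables and 406 to 826 for the 4 erythroid markers in both tables. The 2 T and B cell markers in both tables were too low to be tested. All fractions of a gradient came from 1 homogenate, so marker sums are not a measure of cell numbers in a fraction. Between the 2 gradients, fewer cells of a type and less RNA per cell cannot be told apart. Summed erythroid markers were highest in fraction 8 of each gradient, where they reached 826 and 644 TPM, and the part of red cell RNA in the results below was not tested. Between 11250 and 12258 genes had a TPM over 1 in a library.

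In a velocity gradient, particles sediment by mass, shape and density. An mRNA that is being translated carries ribosomes, each of them far heavier than the mRNA itself, and the number that fit on it is limited by the length of its coding sequence. An mRNA that encodes a very short protein can hold few ribosomes at once, while an mRNA that is not translated sediments as a light ribonucleoprotein. In a lysate made without detergent, mRNAs on the endoplasmic reticulum or on mitochondria can also move with pieces of those membranes. The mRNAs of ribosomal proteins are known for switching between a translated and an untranslated pool, through a tract of pyrimidines at their 5′ end.

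The coding sequences that follow show how short the coding parts of the mRNAs in question are. Their whole transcripts are longer, for example 3690 nt for Cox17 and 434 nt for Uqcr10. The first set holds mRNAs with more of their TPM in fractions 8 and 9 than in both flanking windows of each gradient, and the second set holds ribosomal protein mRNAs of like coding length that did not have this shape. They were read from the GENCODE M21 transcripts of the GRCm38 (mm10) reference, which is from another strain than the FVB mice used. Each runs 5′ to 3′ from the start codon to the stop codon, both in capitals, with introns left out, and the coordinates span the coding part in the genome.
Tmsb4x (chrX:167207501-167208036, − strand, 44 codons): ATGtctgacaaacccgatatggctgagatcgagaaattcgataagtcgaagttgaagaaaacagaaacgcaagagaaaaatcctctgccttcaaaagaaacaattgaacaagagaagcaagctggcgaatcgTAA
Ost4 (chr5:30907422-30907535, − strand, 37 codons): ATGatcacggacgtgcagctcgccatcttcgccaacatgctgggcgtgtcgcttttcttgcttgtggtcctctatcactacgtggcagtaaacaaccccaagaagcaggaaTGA
Cox17 (chr16:38347101-38349325, + strand, 63 codons): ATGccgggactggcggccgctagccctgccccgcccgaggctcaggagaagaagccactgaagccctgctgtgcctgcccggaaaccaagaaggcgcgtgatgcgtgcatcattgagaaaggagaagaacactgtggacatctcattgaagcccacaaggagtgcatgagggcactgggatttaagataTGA
Uqcr10 (chr11:4702176-4704306, − strand, 64 codons): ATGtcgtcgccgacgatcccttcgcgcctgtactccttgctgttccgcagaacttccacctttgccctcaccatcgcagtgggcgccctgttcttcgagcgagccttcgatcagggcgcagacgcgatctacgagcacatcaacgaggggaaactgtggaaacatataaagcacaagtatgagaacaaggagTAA
Mt2 (chr8:94172848-94173427, + strand, 61 codons): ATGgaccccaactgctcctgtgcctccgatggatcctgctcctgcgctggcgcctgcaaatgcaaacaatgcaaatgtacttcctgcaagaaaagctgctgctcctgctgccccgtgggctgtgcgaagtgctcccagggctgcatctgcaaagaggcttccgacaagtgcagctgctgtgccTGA
Timm8b (chr9:50603956-50605100, + strand, 83 codons): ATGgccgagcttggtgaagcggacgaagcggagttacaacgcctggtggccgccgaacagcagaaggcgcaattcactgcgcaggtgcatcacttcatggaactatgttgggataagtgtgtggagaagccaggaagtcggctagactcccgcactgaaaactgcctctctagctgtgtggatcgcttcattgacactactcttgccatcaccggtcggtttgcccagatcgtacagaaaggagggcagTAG
Wfdc21 (chr11:83747027-83749327, + strand, 63 codons): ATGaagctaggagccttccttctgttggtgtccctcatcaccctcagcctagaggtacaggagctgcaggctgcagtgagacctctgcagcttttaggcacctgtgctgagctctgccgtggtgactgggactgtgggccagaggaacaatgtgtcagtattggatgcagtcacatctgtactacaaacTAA
Rpl41 (chr10:128548387-128548960, − strand, 25 codons): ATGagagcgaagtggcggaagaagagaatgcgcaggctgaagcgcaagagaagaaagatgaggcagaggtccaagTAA
Rpl39 (chrX:37082701-37085127, − strand, 51 codons): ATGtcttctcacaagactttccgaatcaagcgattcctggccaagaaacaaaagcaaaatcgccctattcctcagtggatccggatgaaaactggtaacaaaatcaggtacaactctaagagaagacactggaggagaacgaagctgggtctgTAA
Ost4 and Rpl41, with 37 and 25 codons, both declined from fraction 9 to fraction 11 and differed on the light side, as given below.

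Each gradient was summarized as 3 windows, the mean log2(TPM + 1) over fractions 6-7, 8-9 and 10-11, and the change of a gene was its value in window 8-9 minus the mean of both flanking windows. A gene is called a peak where window 8-9 lay above both flanking windows in each gradient, and a dip where it lay below both. Of 11993 genes tested, 1761 (14.7%) were peaks and 324 (2.7%) were dips. Peaks of single libraries were rarer: fractions 8 and 9 both lay above all 4 flanking libraries in each gradient for 365 genes (3.04%) and below all of them for 19 (0.158%). The median change of all genes was 0.10 and not 0, and it was −0.003 after quantile normalization. Changes and calls below are against 0 and include that offset, except where a value is given relative to all genes. Gradients 1 and 2 gave a change of equal sign for 73.8% of the genes tested, and the correlation of their changes across genes, which are not independent, was 0.344 (Pearson's r).

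Without regard to which windows came from the same mouse, no gene passed an adjusted p of 0.05 (limma, 0% of 11993 genes), although 1005 genes had an unadjusted p under 0.05 and the smallest adjusted p was 0.0967. The 3 windows of a gradient came from 1 homogenate. With the gradient as a block in the same limma fit, 1340 genes (11.2%) were higher in fractions 8-9 than in the flanks and 141 (1.18%) were lower, at an adjusted p under 0.05, and after quantile normalization these numbers were 277 and 172, which moved the share of higher calls from 90.5% to 61.7%. Of the 1340 genes, 277 remained higher after quantile normalization, and of the 141 genes 99 remained lower. These counts rested on single libraries: no gene was called without fraction 6 or 10 of gradient 1 or without fraction 6 or 11 of gradient 2, 3 without fraction 7 of gradient 1, 1 without fraction 7 of gradient 2, 390 without fraction 9 of gradient 1 and 602 without fraction 9 of gradient 2. The calls below are those of the fit with the block. All 1340 changes were positive and all 141 negative in each gradient. The fit favors genes whose 2 gradients agree, so these equal signs are no separate support.

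**Figure D1:**
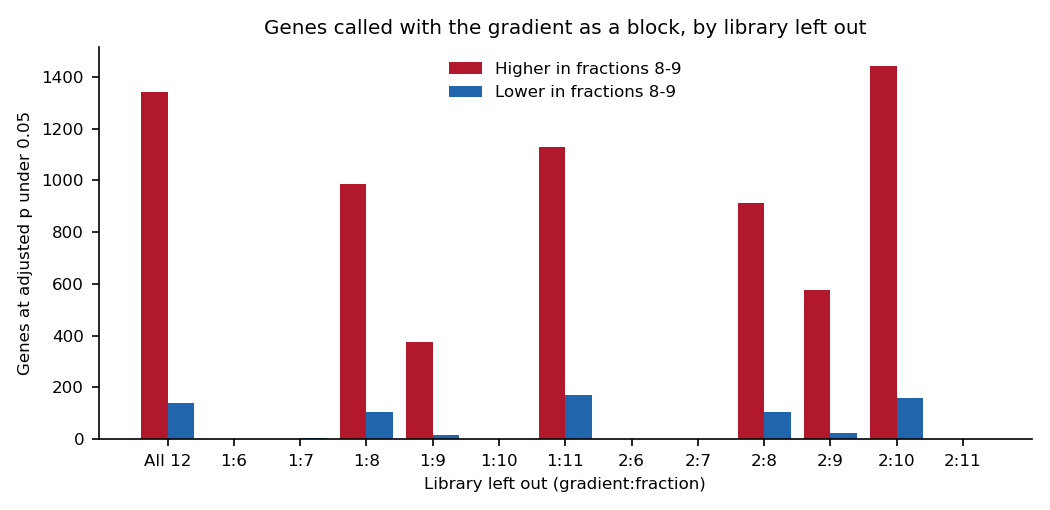
Number of genes called higher (red bars) and lower (blue bars) in fractions 8-9 than in the flanking fractions at an adjusted p under 0.05 with the gradient as a block (y axis), with all 12 libraries and with each library left out (x axis, gradient and fraction). The count falls from 1340 higher and 141 lower to 0 without fraction 6 of either gradient, and stays at 913 or more higher genes without fraction 8 of either gradient.

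A gene called higher than the mean of the flanks need not stand above both of them. Of the 1340 genes called higher, 744 were peaks and 596 were bends, where window 8-9 did not lie above both flanks in each gradient but lay above their mean. Of the 141 genes called lower, 37 were dips and 104 were bends. The steps on each side were also fitted on their own. From fractions 6-7 to 8-9, 1042 genes (8.69%) were higher and 466 (3.89%) lower without the block (12.6% in all), and 4112 (34.3%) and 2043 (17%) with it (51.3%). The 1508 genes called without the block fell to 3 without fraction 6 of gradient 1, to 2 without fraction 6 of gradient 2, and to 616, 756, 568 and 923 without fractions 9 and 10 of gradient 1 and fractions 9 and 11 of gradient 2. The 6155 called with it fell to 3968 and 3387 without fraction 6 of gradients 1 and 2. From fractions 10-11 to 8-9, no gene passed without the block (0%), although 711 did without fraction 10 of gradient 2, and 3111 (25.9%) were higher and 1920 (16%) lower with it (41.9%). These 5031 genes fell to 2691, 2909 and 2791 without fraction 7 of gradient 1 and fractions 6 and 11 of gradient 2. Both steps passed with the block, in the same direction, for 411 peaks (3.43%) and 17 dips (0.142%). Peaks of this kind numbered 88, 203, 223 and 255 without fractions 6, 7, 10 and 11 of gradient 1, and 108, 224 and 119 without fractions 6, 7 and 11 of gradient 2.

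Of 246 mRNAs with a coding sequence of up to 300 nt (stop codon not counted) that encode no cytosolic ribosomal protein, 116 (47.2%) were called higher in fractions 8-9 and none lower, and 84 (34.1%) were peaks, beside 14.7% of all genes. Peaks were 18.0% of the mRNAs of 300 to 450 nt, 17.9% of those of 450 to 600 nt, 14.8% of those of 600 to 900 nt, 13.2%, 11.9% and 12.3% of the next 3 classes up to 2700 nt, and again 17.4% of those over 2700 nt. The share called higher was 21.2% of 599 mRNAs of 300 to 450 nt, 18.6% of 714 of 450 to 600 nt, 13.2% of 1578 of 600 to 900 nt and 6.77% of 1728 over 2700 nt, beside 11.2% of all genes. The median change was 0.40 in gradient 1 and 0.36 in gradient 2 for the shortest class, and 0.08 and 0.11 for the longest. In the shortest class, none was called higher without fraction 6, 7 or 10 of gradient 1 or fraction 6, 7 or 11 of gradient 2, 53 and 67 were without fraction 9 of gradients 1 and 2, and 103 to 121 were with another library left out. After quantile normalization 62 were called higher and 1 lower, and none was called with gradient 2 shifted to either side or with fractions 7 and 10 as flanks. Over all 46 settings tried, the median of the shortest class lay between 0.14 and 0.35 above that of all genes.

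The fraction with the highest median profile moved with length in both directions. For coding sequences of up to 150 nt the median profile was highest in fraction 8 of each gradient (6 mRNAs), for 150 to 225 nt in fraction 9 (79 mRNAs), and for 225 to 300 nt in fraction 10 (161 mRNAs). The 300 to 450 nt class was highest in fraction 10 of gradient 1 and fraction 11 of gradient 2. Longer classes ran back toward the light side: 450 to 600 nt was highest in fraction 9, 600 to 900 nt in fraction 8, and the 3 classes from 900 to 2700 nt in fraction 5 of both gradients, and those over 2700 nt in fraction 8. In the shortest class of up to 300 nt, 95 of the 246 mRNAs had their highest TPM of gradient 1 in fraction 8 or 9, and 93 did so in gradient 2, beside 1648 and 2045 of the 11993 genes tested. Nearly as many, 79 and 76, were highest in fraction 10 or 11, and 41 and 43 in fractions 3 to 5. mRNAs over 2700 nt had a flatter median profile, with a highest value of 1.11 times the gene mean in gradient 1 and 1.20 times in gradient 2, against 1.98 and 2.11 for coding sequences of up to 300 nt.

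**Figure D2:**
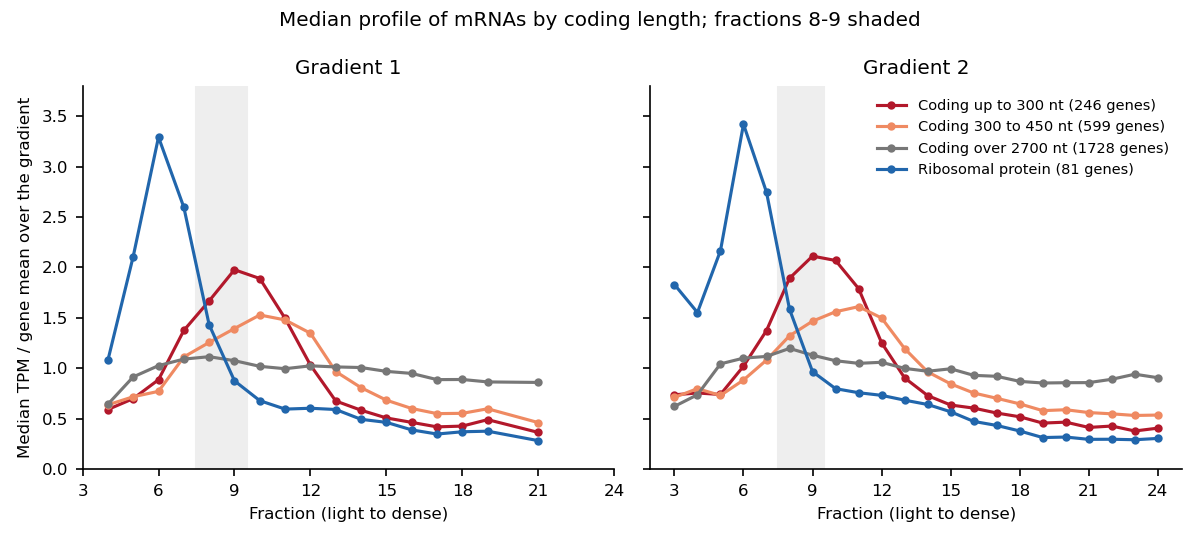
Median TPM of mRNAs, divided by each gene's mean over its gradient (y axis), in every sequenced fraction from light to dense (x axis) of gradients 1 and 2, with fractions 8 and 9 shaded. Coding sequences of up to 300 nt are highest in fraction 9 (1.98 and 2.11 times the mean), those over 2700 nt reach 1.11 and 1.20 in fraction 8, and ribosomal protein mRNAs are highest in fraction 6 (3.29 and 3.42 times the mean).

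The share called higher also moved with abundance, whose part in it was not tested. Among mRNAs of 50 to 200 mean TPM, 72.1% of 68 with a coding sequence of up to 300 nt were called higher, against 39.2% of 332 of 300 to 600 nt and 24.3% of 1191 over 900 nt. Under a mean TPM of 10, 4.08% of 49, 3.67% of 327 and 0.692% of 3180 were called. Split by transcript length, the mRNAs with a coding sequence of up to 300 nt had a median change of 0.42 for transcripts of up to 700 nt, 0.44 for 700 to 1200 nt, 0.40 for 1200 to 2000 nt and 0.26 over 2000 nt, and 21 of the 57 mRNAs in the last class were called higher (11.2% of all genes). All these classes were chosen after the values were seen.

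Some mRNAs for small mitochondrial proteins were peaks. Complexes III and IV and the ATP synthase held 2 peaks among 39 mRNAs, Uqcr10 and Cox8a, beside 14.7% of all genes, so that peaks were not frequent among them. Uqcr10, a small subunit of complex III, was at 439, 1204, 1859.8, 2523, 2259 and 1375 TPM in fractions 6 to 11 of gradient 1, and 609, 1367, 2606, 2903, 2506 and 1634 TPM in those of gradient 2. Fractions 8 and 9 were above both flanking windows in each gradient, and fraction 10 lay between fractions 8 and 9 in gradient 1 and below both in gradient 2. Its change was 0.98 (SE 0.073, adjusted p = 0.016) in limma with the block. Cox8a, a subunit of cytochrome c oxidase, was at 736, 1432, 2233, 2686, 2196 and 1588 TPM in fractions 6 to 11 of gradient 1, and 734, 1421, 2357, 2467, 1922 and 1709 TPM in those of gradient 2, and its change was 0.82 (SE 0.068, adjusted p = 0.016). Cox17, the copper chaperone of that enzyme, had a change of 0.85 (SE 0.071, adjusted p = 0.016). Timm8b, a small chaperone that escorts proteins between the mitochondrial membranes, was at 196, 359, 388, 412, 229 and 111 TPM in fractions 6 to 11 of gradient 1, and 209, 372, 465, 463, 269 and 172 TPM in those of gradient 2, so that all 4 libraries of fractions 8 and 9 were above the 8 flanking ones. Cox8a, Cox17 and Timm8b were chosen after their values were seen.

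The metallothioneins Mt1 and Mt2, small cysteine-rich proteins that bind zinc and copper, were both peaks. Mt2 was at 2534, 6774, 11982, 13299.6, 12846 and 8141 TPM in fractions 6 to 11 of gradient 1, and 1132, 2626, 3989, 4812, 3632 and 2443 TPM in those of gradient 2. From fraction 7 on, every library of gradient 1 lay above all of gradient 2, while fraction 9 was the highest in each. Fraction 10 of gradient 1 stood above fraction 8. The SE of the change, 0.95, was 0.71 without the block and 0.13 with it (adjusted p = 0.866 and 0.0196, limma), and for Mt1 the change was 0.96 (SE 0.11, adjusted p = 0.0176) with the block. Wfdc21, a secreted protein with a whey acidic protein domain, was at 1176, 2525, 4791, 6738, 4791 and 2828 TPM in fractions 6 to 11 of gradient 1, and 1201, 2455, 4642, 6372, 5864 and 3909 TPM in those of gradient 2, and its change was 1.05 (SE 0.12, adjusted p = 0.0176) with the block.

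Other mRNAs with short coding sequences belong to other compartments. Ost4, the smallest subunit of the oligosaccharyltransferase that glycosylates proteins in the endoplasmic reticulum, was at 288, 518, 709, 736, 456 and 262 TPM in fractions 6 to 11 of gradient 1, and 245, 422, 631, 659, 491 and 325 TPM in those of gradient 2. Tmsb4x, which encodes the actin-binding peptide thymosin beta 4, was at 321, 628, 868, 854, 534 and 266 TPM in fractions 6 to 11 of gradient 1, and 306, 487, 673, 795, 604 and 369.7 TPM in those of gradient 2. In both genes the 4 libraries of fractions 8 and 9 were the highest of the 12. Tma7, a small factor linked to the translation machinery, was at 214, 393, 427, 389, 212 and 118 TPM in fractions 6 to 11 of gradient 1, and 234, 375, 500.0, 486, 342 and 184 TPM in those of gradient 2. Fraction 9 of gradient 1 lay just below fraction 7, and the windows of gradient 2 did not overlap. The changes with the block were 0.91 (SE 0.11, adjusted p = 0.0176), 0.92 (SE 0.13, adjusted p = 0.0205) and 0.89 (SE 0.13, adjusted p = 0.0211), and Tmsb10, a paralog of Tmsb4x, had 0.64 (SE 0.14, adjusted p = 0.0486). Gng5, a gamma subunit of heterotrimeric G proteins, had 0.92 (SE 0.073, adjusted p = 0.016). These genes were chosen after their values were seen.

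**Figure D3:**
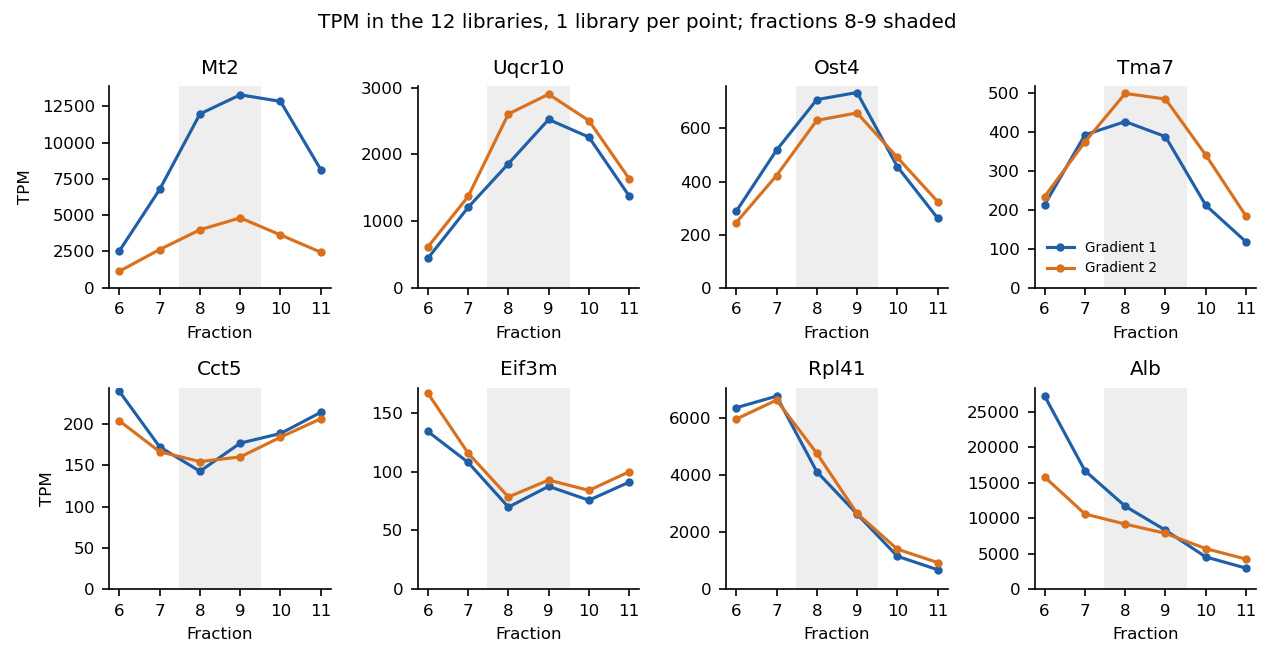
TPM (y axis, from 0) of 8 RNAs in fractions 6 to 11 (x axis) of gradient 1 (blue) and gradient 2 (orange), 1 library per point, with fractions 8 and 9 shaded. Mt2, Uqcr10, Ost4 and Tma7 are higher in the shaded window than in both flanks, Cct5 and Eif3m are lower, and Rpl41 and Alb decline from fraction 7 or 6 to fraction 11.

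The mRNAs of the 82 cytosolic ribosomal proteins tested ran the other way. The summed TPM of the 83 in both tables was 178962, 144335, 80038, 52344, 40076 and 36757 TPM in fractions 6 to 11 of gradient 1, and 194748, 161725, 95582, 59442, 48391 and 46708 TPM in those of gradient 2. Both gradients lost most of this share between fractions 7 and 9. Of the 82, 31 were called lower in fractions 8-9 than in the flanks and 1 higher (beside 1.18% and 11.2% of all genes), and the only dip, Rpl34, was not among the 31, so that these calls are bends of a steep decline. The 31 became 4 after quantile normalization, none without fraction 6, 7, 9 or 10 of gradient 1 or fraction 6, 7, 9 or 11 of gradient 2, 16 without fraction 8 of gradient 1 and 49 without fraction 11 of gradient 1. On the light side 69 of the 82 were lower without the block (3.89% of all genes) and 78 with it (17%), with a median step of −1.31, and on the dense side 72 were higher with the block (25.9%), with a median step of 0.76. The median change from the flanks was −0.29 in each gradient, which is −0.39 relative to all genes, −0.17 after quantile normalization, and 0.01 where the fraction numbers of gradient 2 were shifted by 1 to the light side. Without fraction 9 of gradients 1 and 2 it was −0.22 and −0.21 relative to all genes, and without fraction 8 −0.57 and −0.58.

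The median profile of ribosomal protein mRNAs was highest in fraction 6 of both gradients in every class of coding length. The 10 with up to 300 nt had a median change of −0.13, which was 0.11 after quantile normalization, and 1 of them was a peak, against 84 of the 246 other mRNAs of that length. Rpl41, with 25 codons, was at 6371, 6776, 4125, 2637, 1154 and 681 TPM in fractions 6 to 11 of gradient 1, and 5972, 6639, 4771, 2657, 1402 and 933 TPM in those of gradient 2, lower in each fraction after the seventh. Its step was −0.91 from fractions 6-7 and 1.77 from fractions 10-11, so that its change from the mean of the flanks was positive (0.43, SE 0.11, adjusted p = 0.0643) without a peak. Rpl39 had steps of −1.22 and 1.16. Rps28 had a change of −0.13 (SE 0.081, adjusted p = 0.328) with the block and was not called.

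The exception was Rps27l, a paralog of Rps27, which was at 317, 891, 1249, 1590.3, 1492 and 871 TPM in fractions 6 to 11 of gradient 1, and 433, 810.3, 1221, 1589, 1484 and 1038 TPM in those of gradient 2. It was the single peak and the single member called higher, with a change of 0.78 (SE 0.069, adjusted p = 0.016). Of the other members tested, Rpl30, Rpl7l1 and Rps4l had a positive step on the light side, 0.75, 0.26 and 0.11. Rpl30 and Rps4l had a mean of 22.5 and 3.56 TPM, and Rpl7l1 of 54.6 TPM. Ribosomal protein genes have many near-identical pseudogenes, and how reads were shared among such copies is not given in the sources used here, so their levels are uncertain. These exceptions were chosen after their values were seen.

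**Figure D4:**
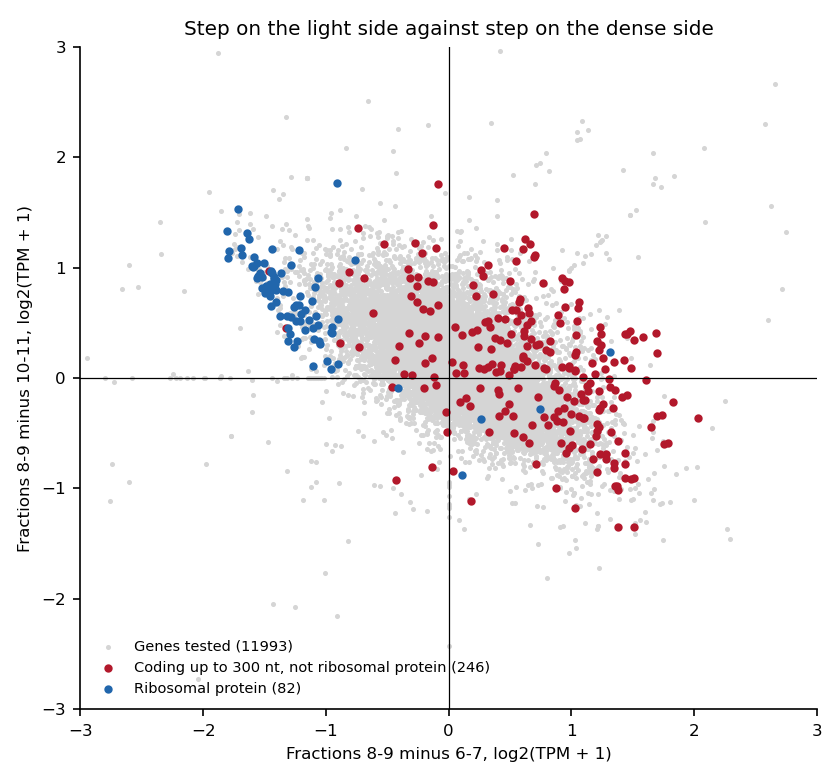
Step of each gene from fractions 6-7 to 8-9 (x axis) against its step from fractions 10-11 to 8-9 (y axis), both as differences of log2(TPM + 1) averaged over the 2 gradients, for 11993 genes (gray), 246 mRNAs with a coding sequence of up to 300 nt (red) and 82 ribosomal protein mRNAs (blue). Genes to the upper right are higher in fractions 8-9 than in both flanks, most ribosomal protein mRNAs lie to the upper left (median steps −1.31 and 0.76), and 19 genes lie outside the drawn range of 3.

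mRNAs of complex I and of the mitochondrial ribosome mostly kept rising past the window. Of 78 mRNAs of the mitochondrial ribosome, 55 were lower in fractions 8-9 than in 10-11 with the block (16% of all genes). Of 36 mRNAs of complex I, the entry enzyme of the respiratory chain, 28 were higher in fractions 8-9 than in 6-7 without the block (8.69% of all genes) and 27 were lower than in fractions 10-11 with it (16%). Against the mean of the flanks 15 of 36 were called higher (11.2%), and 5 of the 36 were peaks (14.7% of all genes): Ndufa2, Ndufa3, Ndufa6, Ndufc1 and Ndufv3, chosen after their values were seen, with changes of 0.72, 0.74, 0.53, 0.75 and 0.83. Ndufa4, which the list holds by its name though its product is now placed in cytochrome c oxidase, was at 266, 411, 686, 1335, 2279 and 2776 TPM in fractions 6 to 11 of gradient 1, and 327, 468, 685, 1239, 2005 and 2593 TPM in those of gradient 2, a rise in every fraction. Its change was 0.02 (SE 0.096, adjusted p = 0.937). The median change of complex I subunits relative to all genes was 0.19, and −0.02 without fraction 9 of gradient 1.

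Complexes III and IV and the ATP synthase were split. Of 39 subunits, 11 were called higher (11.2% of all genes) and 3 lower (1.18%), with changes from −0.44 to 0.98, Uqcr10 at the top. Cox4i1, a core-associated subunit of cytochrome c oxidase, was at 1208, 1178, 960.3, 1188, 1495 and 1946 TPM in fractions 6 to 11 of gradient 1, and 1135, 1122, 1124, 1118, 1395 and 1942 TPM in those of gradient 2, and Atp5g2, which encodes the ring subunit of the ATP synthase, was at 664, 606, 410.5, 336, 336 and 413 TPM in fractions 6 to 11 of gradient 1, and 671, 559, 455, 345, 361 and 449 TPM in those of gradient 2. Both were dips by window means. The window 8-9 of Atp5g2 lay barely below window 10-11, and Cox4i1 overlapped between the windows, since fraction 9 stood above fraction 7 in gradient 1. In gradient 2, Cox4i1 was nearly level over fractions 6 to 9, and fraction 8 stood above fraction 7, so window 8-9 lay barely below window 6-7. Their changes with the block were −0.35 (SE 0.07, adjusted p = 0.0378) and −0.36 (SE 0.062, adjusted p = 0.029). Atp5b, a catalytic subunit of the same enzyme, lay between its flanks with a change of 0.25 (SE 0.065, adjusted p = 0.0668). Of 78 mitochondrial ribosomal proteins, 25 were called higher and none lower (11.2% and 1.18% of all genes), and 48 were higher than in fractions 6-7 without the block (8.69%), with Mrps21 at 0.62 (SE 0.089, adjusted p = 0.0208), Mrpl12 at 0.43 (SE 0.074, adjusted p = 0.0283) and Mrpl52 at 0.35 (SE 0.056, adjusted p = 0.025).

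Proteasome subunits, which form the protease that degrades ubiquitinated proteins, rose through the window in 26 of 38 mRNAs on the light side without the block (8.69% of all genes) and in 37 with it (34.3%), and 37 were lower than in fractions 10-11 with the block (16%). None was a peak and 1 was a dip (14.7% and 2.7% of all genes), and against the mean of the flanks 9 were called higher and none lower (11.2% and 1.18%). Psma1, a subunit of the core ring, was at 42.6, 68.6, 80.5, 101, 131 and 142 TPM in fractions 6 to 11 of gradient 1, and 55.1, 64.7, 68.3, 97.0, 122 and 112 TPM in those of gradient 2, and Psmb1 had steps of 0.24 and −0.60. Fractions 8 and 9 lay between the flanks for Psma1. Adrm1, a ubiquitin receptor of the proteasome, was one of the 9, 0.23 (SE 0.049, adjusted p = 0.0405), while Psmc5 and Psmd13 had changes of 0.06 and 0.03 (adjusted p = 0.692 and 0.766, limma with the block). Fatty acid oxidation and ketogenesis showed the same order of windows, with 17 of 20 mRNAs higher on the light side and 19 lower on the dense side with the block (34.3% and 16% of all genes), and Acaa2, a thiolase, had steps of 0.83 and −0.56.

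Plasma proteins that hepatocytes secrete did not all take the same course. Alb, which encodes albumin, was at 27239, 16704, 11696, 8307, 4538 and 2955 TPM in fractions 6 to 11 of gradient 1, and 15818, 10599, 9172, 7868, 5709 and 4234 TPM in those of gradient 2. The share fell in every fraction of each gradient, and the change of Alb from the mean of the flanks was 0.12 (SE 0.24, adjusted p = 0.773). Of 40 plasma protein mRNAs, 19 were lower and 5 higher than in fractions 6-7 with the block (17% and 34.3% of all genes), 31 were higher than in fractions 10-11 with it (25.9%), 9 were lower than in fractions 6-7 without it (3.89%), and 1 was called higher than the mean of the flanks (11.2%). Apoc1, a small apolipoprotein with a coding sequence of 264 nt, was at 8456, 14181, 18825, 22837, 21224 and 15094 TPM in fractions 6 to 11 of gradient 1, and 10328, 16982, 25298, 29307, 29230.0 and 26624 TPM in those of gradient 2. Its highest library was fraction 9 of each gradient, but window 8-9 was not above both flanks in each, and its change was 0.53 (SE 0.15, adjusted p = 0.0751). Fn1, which encodes fibronectin, had steps of −0.83 and 0.81, and its change was −0.01 (SE 0.13, adjusted p = 0.972).

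Cytochrome P450 mRNAs, whose products sit in the membrane of the endoplasmic reticulum and oxidize drugs and steroids, had a median step of −0.22 from fractions 6-7, beside −0.57 for plasma proteins, and the difference was not tested. Of 62, 45 were higher than in fractions 10-11 with the block (25.9% of all genes). The 14 lower than in fractions 6-7 and the 9 called higher than the mean of the flanks were near the share of all genes (17% and 11.2%), and none was called lower (1.18%). Cyp2e1 had steps of −1.28 and 1.03, and Cyp2c39 of −0.02 and 0.78 with a change of 0.38 (SE 0.062, adjusted p = 0.0253). Cyp3a11 was a peak by window means, 0.32 (SE 0.11, adjusted p = 0.126), and was not called. Among 22 mRNAs for folding and quality control in the endoplasmic reticulum, 19 were higher than in fractions 10-11 with the block (25.9% of all genes), and P4hb, protein disulfide isomerase, had steps of −1.25 and 0.96. The major urinary proteins Mup1, Mup3 and Gm2083, small secreted carriers of pheromones, were peaks, with changes of 0.46, 0.46 and 0.83 and adjusted p of 0.0432, 0.0473 and 0.0246 (limma with the block). Mup genes are near-identical copies, so reads may be split among them, and they were chosen after their values were seen. Mup1 was at 856, 1419, 1329.7, 1534, 1172 and 783 TPM in fractions 6 to 11 of gradient 1, and 4575, 5470.4, 6705, 7786, 6324 and 4892 TPM in those of gradient 2, so that every library of gradient 2 was above every library of gradient 1.

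**Figure D5:**
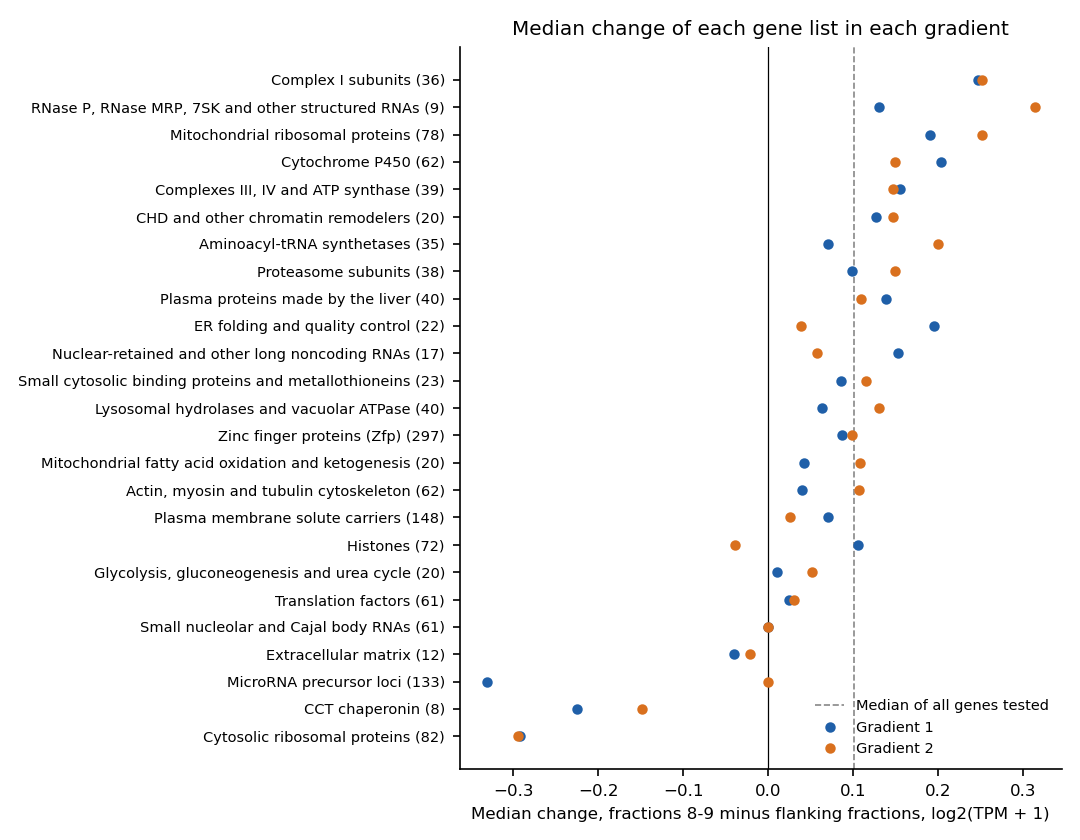
Median change from the flanking fractions to fractions 8-9, in log2(TPM + 1) (x axis), of each gene list (y axis, number of genes tested in parentheses) in gradient 1 (blue) and gradient 2 (orange), beside the median of all genes (dashed line, 0.10). Complex I subunits (0.25 in each gradient) lie above that line, and CCT chaperonin (−0.22 and −0.15) and cytosolic ribosomal proteins (−0.29 in each) lie below 0.

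Dips were fewer than peaks. Of the 17 genes that were lower than both flanks by both steps (0.142% of all genes), 2 were among the 8 tested mRNAs of the chaperonin CCT, a ring that folds newly made proteins, and 2 among the 62 of the actin, myosin and tubulin cytoskeleton. Cct5 was at 239, 172, 143, 177, 189 and 214 TPM in fractions 6 to 11 of gradient 1, and 204, 166, 155, 160.1, 184 and 206 TPM in those of gradient 2. Its lowest library was fraction 8 in each gradient, fraction 9 of gradient 1 stood above fraction 7, and the change was −0.31 (SE 0.055, adjusted p = 0.03). Tubb2a, a beta tubulin, was at 108, 90.1, 76.8, 85.1, 97.2 and 119 TPM in fractions 6 to 11 of gradient 1, and 49.3, 39.5, 37.4, 34.3, 41.1 and 48.7 TPM in those of gradient 2, with fractions 8 and 9 below the flanks of its own gradient in each case. Its change was −0.33 (SE 0.054, adjusted p = 0.0264) and that of Tuba1b, an alpha tubulin, −0.24 (SE 0.055, adjusted p = 0.0493).

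Of the 8 CCT mRNAs tested, 2 were called lower (1.18% of all genes), Cct5 and Tcp1 (−0.27, SE 0.059, adjusted p = 0.0458), and Cct2 had −0.22 (SE 0.06, adjusted p = 0.0677). The median of the 8 relative to all genes ran from −0.34 to −0.17 over the 46 settings. The summed TPM of the 9 CCT mRNAs in both tables was 1015, 888, 817, 949, 1054 and 1171 TPM in fractions 6 to 11 of gradient 1, and 967, 833, 862, 908, 1039.8 and 1114 TPM in those of gradient 2, lowest in fraction 8 of gradient 1 and in fraction 7 of gradient 2. The other members of the 17 were Hnrnpa0, Arpc1b, Sh3bgrl, Sh3bgrl2, Ccdc25, Med22, Lin7c, Rbbp9, Dph6, Gm5424, the small nucleolar RNAs Snora61 and Snora31, and Hist2h3c1. The 17 were chosen after their values were seen. Both-step dips were 80 after quantile normalization, and from 2 to 8 without fraction 6, 7, 8 or 10 of gradient 1 or fraction 6, 7, 8 or 11 of gradient 2.

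Among abundant mRNAs the rule for named dips gave Eif3m, Atp5g2, Btf3, Pgk1 and Cox4i1. Eif3m, a subunit of the initiation factor that recruits mRNAs to the small ribosomal subunit, was at 134, 108, 69.9, 87.7, 75.8 and 91.2 TPM in fractions 6 to 11 of gradient 1, and 167, 116, 78.6, 93.0, 84.2 and 100.1 TPM in those of gradient 2. Fraction 8 was its lowest library in each gradient, while fraction 9 stood above fraction 10. Its change was −0.38 (SE 0.051, adjusted p = 0.0196). Btf3, a subunit of the complex that meets nascent chains at the ribosome, had −0.31 (SE 0.051, adjusted p = 0.0256), and Pgk1, the phosphoglycerate kinase of glycolysis, −0.33 (SE 0.06, adjusted p = 0.0315). Among less abundant genes the same rule gave D10Wsu102e (−0.47, SE 0.067, adjusted p = 0.0205), Sh3bgrl2 (−0.41, SE 0.052, adjusted p = 0.0179), Zfp622 (−0.44, SE 0.088, adjusted p = 0.0373), Fadd, an adaptor of death receptors (−0.37, SE 0.07, adjusted p = 0.0332), Med22, a Mediator subunit (−0.42, SE 0.067, adjusted p = 0.0242), Sh3bgrl (−0.38, SE 0.057, adjusted p = 0.0217) and Oraov1 (−0.33, SE 0.061, adjusted p = 0.0315). None of these had passed without the block.

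Some noncoding RNAs peaked as well. 5033403H07Rik, a processed transcript without a coding sequence at chr5:52973012-52994436 (GRCm38), was at 232, 414, 416, 343, 175 and 74.5 TPM in fractions 6 to 11 of gradient 1, and 191, 331, 395, 321, 162 and 96.2 TPM in those of gradient 2. The flanking fraction 7 overlapped with fractions 8 and 9 in both gradients, and the change was 1.00 (SE 0.094, adjusted p = 0.0162), the larger part of it on the dense side, with steps of 0.39 and 1.61. Scarna2, a Cajal body RNA that guides the modification of spliceosomal RNA, at chr3:108554338-108554751, was at 2529, 1712, 4547, 2427, 1657 and 1868 TPM in fractions 6 to 11 of gradient 1, and 1374, 2184, 3095, 2349, 1774 and 773 TPM in those of gradient 2, highest in fraction 8 of each gradient, though fraction 6 of gradient 1 exceeded fraction 9, with a change of 0.86 (SE 0.096, adjusted p = 0.0176). Vaultrc5, an RNA of the vault particle, a large hollow ribonucleoprotein, was at 4.85, 6.43, 60.3, 30.9, 24.4 and 4.94 TPM in fractions 6 to 11 of gradient 1, and 4.32, 1.8, 17.8, 35.0, 39.0 and 4.54 TPM in those of gradient 2. Fractions 8 and 9 were higher than fractions 6, 7 and 11 in each gradient but not higher than fraction 10 in gradient 2, and the change was 2.04 (SE 0.23, adjusted p = 0.0176).

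Several loci of small RNAs were named by the rule but rest on values that include zeros. Mir3064, within Ddx5, and Snord4a, within Rpl23a, were named as peaks, and Mir3061, within Ppp2ca, as a dip, and none of the 3 passed with the block (adjusted p = 0.232, 0.125 and 0.0681, limma). Mir290a was listed at 0 in 7 of the 12 libraries, and Snora61, within Snhg12, was listed at 0 in fraction 8 of both gradients. Hist2h3c1, a histone H3 gene, was listed at 0 in fractions 8 and 9 of both gradients and at 6.28 to 26.8 TPM in the 8 flanking libraries. Of 133 microRNA loci tested, 125 had a 0 in at least 1 of the 12 libraries, and the median gap between the changes of the 2 gradients was 1.32, against 0.11 for all genes. Reads of a small RNA locus and of its host transcript cannot be told apart in these values.

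The remaining lists are read against the 11.2% of all genes called higher than the mean of the flanks and the 1.18% called lower. Of 297 zinc finger protein (Zfp) mRNAs, 12 were called higher and 2 lower, both below those shares, though 61 were peaks by window means (14.7% of all genes). Calls were also at or below the share of all genes in the higher direction for 148 plasma membrane solute carriers (7 higher and 3 lower), 40 mRNAs of lysosomal hydrolases and the vacuolar ATPase (4 and 0), 62 of the actin, myosin and tubulin cytoskeleton (2 and 2), 72 histones (4 and 2), 20 chromatin remodelers (2 and 0) and 12 of the extracellular matrix (0 and 0). Higher calls took a larger share of 17 long noncoding RNAs (4, or 23.5%, and 0 lower), 9 structured RNAs such as that of RNase P (2, or 22.2%, and 0), 23 small cytosolic binding proteins and metallothioneins (4, or 17.4%, and 0) and 35 aminoacyl-tRNA synthetases (6, or 17.1%, and 0). Lower calls took a larger share of 61 translation factors (6, or 9.84%, and 5 higher), 61 small nucleolar and Cajal body RNAs (6, or 9.84%, and 5), 20 mRNAs of glycolysis, gluconeogenesis and the urea cycle (2, and 0) and 133 microRNA loci (10, or 7.52%, and 4). These shares rest on few genes, and no difference from all genes was tested. Eef1a1, the elongation factor that brings tRNAs to the ribosome, was at 18098, 11193, 5191, 2942, 1856 and 1467 TPM in fractions 6 to 11 of gradient 1, and 19581, 12224, 6546, 3623, 2549.9 and 2252 TPM in those of gradient 2. It declined like the ribosomal protein mRNAs, with steps of −1.77 and 1.13. Fabp1, the liver fatty acid-binding protein, did the opposite, at 4030.0, 9192, 14280.4, 22584, 32144 and 44007 TPM in fractions 6 to 11 of gradient 1, and 4013, 7170.2, 13174, 18746, 26917 and 37793 TPM in those of gradient 2. Its steps were 1.56 and −1.04, and its change was 0.26 (SE 0.12, adjusted p = 0.231). Of 72 histone mRNAs, 55 were higher than in fractions 6-7 and 54 lower than in fractions 10-11 with the block (34.3% and 16% of all genes), with Hist1h4h at steps of 2.27 and −1.37. Malat1, a nuclear-retained RNA, had steps of −1.59 and 1.35, and Rpph1, the RNA of RNase P, −1.71 and 1.34.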

How the data were processed

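RNA was measured in sucrose gradient fractions of mouse liver, 17 libraries of gradient 1 and 22 of gradient 2, of which fractions 6 to 11 of each were used. Reads were assigned by the authors with kallisto (version not given in the sources used here) to an index of RefSeq transcripts on mm10. The deposited values are TPM by gene, in 1 table a gradient, and genes at or under 1 TPM in all fractions were dropped. The submitters' processing notes also name bcl2fastq 2.16.0.10. How transcripts were summed to genes, and whether strand was used, is not given in the sources used here. Every column matched a sample, and 0 did not.

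The 13982 and 13634 genes of the tables share 13230, of which 11993 had a mean TPM of at least 1 over the 12 libraries. Windows are means of log2(TPM + 1), a scale that understates changes of low genes. They were tested with limma 3.58.1 (R 4.3.3, eBayes with a trend, two-sided, Benjamini-Hochberg over all genes), which was tested on simulated data, with and without the gradient as a block. Without the block, the p-values measure the spread between 2 mice within a window. With the block, the difference in level between the 2 mice is taken out. Those p-values measure how far the differences between windows vary between the 2 gradients. The design text gives 1 mouse per gradient, so windows with the same gradient number are paired. Their deviations from the window means correlated across 11993 genes with r = 0.607 (6-7 with 8-9), 0.608 (6-7 with 10-11) and 0.682 (8-9 with 10-11).

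The members, gene lists and tests were chosen with earlier results of these data known, and the classes of coding length after the values were seen. Genes are named if they were among the 10 largest rises or 10 largest falls by the smaller of both gradients' changes, taken from peaks or dips with a mean TPM of at least 10 (5 each way with at least 100), the 3 most abundant of each list, or one of Fn1, Psma1, Psmb1, Adrm1, Psmc5, Atp5b, Alb and Psmd13. The rule asked first for an adjusted p under 0.05 without the block, which no gene had, so its places hold genes that had not passed. Some genes that the rule gave are not reported here. Others are said to have been chosen after their values were seen. Lengths and coordinates are from GENCODE M21 (GRCm38, the assembly of mm10), from 1 transcript a gene (the APPRIS principal one where tagged). Of the 13230 symbols, 12832 matched directly, 234 through an older symbol and 164 not. Alternatives were the block, pseudocount 0.1, other filters, rescaling without the 50 most abundant genes, quantile normalization, shifted fraction numbers, other flanks, 4 values in place of 6, eBayes without a trend, and each library left out. Figures used matplotlib 3.10.9 (Python 3.11.15).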

Additional observations from a re-analysis of the deposited data

How the results depend on the processing

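With 2 gradients and no counts, precision rests on the agreement of 2 mice, and low or short RNAs with zeros are the least certain.

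Against both flanks and without the block, 0 genes were called with all settings as described, and 1 with pseudocount 0.1, with eBayes without a trend and with gradient 2 shifted to the dense side. Leaving out a library gave 0 to 1. The replicate block gave 1481. With the replicate block, the count was 449 after quantile normalization, 924 with no filter, 1 with gradient 2 shifted to either side, 0 with fractions 7 and 10 as flanks, and 0 to 1601 with a library left out (390 and 602 without fraction 9 of gradients 1 and 2).

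Against fractions 6-7, the 1508 genes became 6155 with the replicate block, 1 and 0 with gradient 2 shifted to the dense and the light side, and 2 to 1878 with a library left out. With the block the 6155 became 2239 and 3563 under those shifts, 2915 against fraction 7 alone, and 3387 to 6238 with a library left out (3968 without fraction 6 of gradient 1). Against fractions 10-11, 0 genes became 5031 with the replicate block, 2 with pseudocount 0.1, 529 with a mean TPM of at least 10, 142 without the 50 most abundant genes, and 0 to 711 with a library left out. With the block the 5031 became 1653 and 581 under the shifts, 2131 against fraction 10 alone, and 2691 to 5461 with a library left out (2909 and 2791 without fractions 6 and 11 of gradient 2).

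Peaks by both steps with the block, 411, became 165 after quantile normalization, 12 and 6 under the shifts, 29 with fractions 7 and 10 as flanks, and 88 to 452 with a library left out (203, 223 and 255 without fractions 7, 10 and 11 of gradient 1, and 108, 224 and 119 without fractions 6, 7 and 11 of gradient 2). Dips, 17, became 80, 2 and 3, 2, 10 with no filter, and 2 to 18 with a library left out (5, 8 and 5 without fractions 7, 8 and 10 of gradient 1, and 4, 8, 8 and 4 without fractions 6, 7, 8 and 11 of gradient 2). The cause of these differences was not tested. Of the 147 named genes, 103 had a change of the same sign under every alternative tried. The change of Mir290a turned to −0.012 with gradient 2 shifted to the light side. Counts could not be made from 1 gradient.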
